A study of Caenorhabditis elegans with 2 samples.

Results

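Translation factor and aminoacyl-tRNA synthetase genes of Caenorhabditis elegans were taken by gene name. Protein-coding genes of the WBcel235 Ensembl models whose names begin with eef, eif, iff, ife or ifg, or with a letter followed by ars, and then a hyphen and a digit, were the members. The rule found 71 of 19985 protein-coding genes, of which 39 encode translation factors and 32 encode synthetases. For each gene the highest summit within 500 bp of its 5' end was read from the deposited peak lists of a chromatin immunoprecipitation sequencing (ChIP-seq) experiment, and a gene with no summit there was called not listed.

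The experiment mapped where F22D6.2, which the gene models name mstr-1, lay on chromatin. Both samples were whole hermaphrodite young adults of strain OP399, genotype unc-119(tm4063) III; wgIs399, a transgenic line that stably expresses F22D6.2 with a GFP-FLAG tag at its C-terminal end. Worms were hatched from bleached adults, held as starved L1 larvae, and harvested 67 hours after this synchronization. Chromatin was sonicated and recovered with an antibody against GFP. The 2 samples are biological replicates 1 and 2 of a single group, so no contrast between groups of samples exists, and the counts and medians below carry no test. The promoter that drives the transgene was not given in the sources used here. Whole worms hold every tissue, so a strong signal in few cells and a weak signal in many cannot be told apart.

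The pooled list, made from both replicates together, held 26002 summits, and the lists of replicates 1 and 2 held 25000 and 23268. These 3 lists include background regions by design, so being listed does not mean being bound. The thresholded set kept 798 pooled summits, all with signal values from 80.3 to 6333, against a median of 22.2 over the whole pooled list. The signal value is the authors' own value for a peak over a control shared by both replicates. Its scale is not stated, so it is used here to order summits within a list, where rank 1 is the highest. Read depth was not given in these files and is unknown. No sample without the tagged protein was analysed here, so the dependence of any summit on the tag was not tested.

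Protein synthesis starts when initiation factors bring the initiator tRNA, the mRNA cap and the small ribosomal subunit together, and continues as elongation factors deliver charged tRNAs and move the ribosome along the message. Aminoacyl-tRNA synthetases load each tRNA with its amino acid and thereby supply the substrate of elongation. In C. elegans many synthetase genes share their letter with a gene of another number. Several initiation factors come as related copies with different uses in germ line and soma.

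The DNA under the 8 summits that reached the thresholded set is where the data on these genes are firmest, and 6 of them are shown so that their base composition and position can be read beside the values. Each stretch is reference sequence of build ce11, 5' to 3' on the strand of the gene, centred on the deposited pooled summit, with the 11 bases around the summit in capitals. Windows reach 50 bases to either side of the summit, except at eef-1G and ears-2, where they stop at 83 and 85 bases because the gene's 5' end follows. They lie at chrV:10965636-10965718 (eef-1G, plus strand), chrIII:6972060-6972160 (eef-1A.1, minus strand), chrX:7823246-7823346 (eef-1A.2, plus strand), chrII:8561385-8561485 (iff-2, minus strand), chrII:14795066-14795166 (eif-3.B, plus strand) and chrIV:390469-390553 (ears-2, minus strand). None of these 6 windows overlaps an annotated exon of a protein-coding gene, and all lie upstream of the 5' end of the gene named.
eef-1G: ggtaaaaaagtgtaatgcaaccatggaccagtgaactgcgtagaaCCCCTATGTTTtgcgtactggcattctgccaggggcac
eef-1A.1: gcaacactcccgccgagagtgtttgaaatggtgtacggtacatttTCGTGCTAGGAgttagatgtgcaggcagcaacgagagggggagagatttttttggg
eef-1A.2: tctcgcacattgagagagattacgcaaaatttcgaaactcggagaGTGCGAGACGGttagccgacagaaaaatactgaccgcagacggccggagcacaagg
iff-2: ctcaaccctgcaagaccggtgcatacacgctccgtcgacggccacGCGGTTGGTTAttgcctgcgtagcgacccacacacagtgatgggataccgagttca
eif-3.B: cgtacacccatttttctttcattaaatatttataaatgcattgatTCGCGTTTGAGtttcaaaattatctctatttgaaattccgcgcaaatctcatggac
ears-2: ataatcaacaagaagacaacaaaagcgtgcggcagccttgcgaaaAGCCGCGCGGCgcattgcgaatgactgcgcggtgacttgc

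The elongation factors were the role group most often listed. All 6 had a summit in the pooled list and in both replicate lists, and 4 of the 6 reached the thresholded set. Over all protein-coding genes, 30.2% had a pooled summit, 28.4% had a replicate 1 summit, 27.8% had a replicate 2 summit, 16.1% had a summit in both replicates and 2.06% had a thresholded summit. The median pooled signal of the 6 was 103 (range 32.0 to 138), against 25.7 over the 6033 listed protein-coding genes.

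eef-1G (WBGene00008920), a subunit of the exchange factor that recycles eEF1A, had a pooled signal of 138 at rank 239, with 73.4 in the replicate 1 list and 59.8 in the replicate 2 list. Its summit lay 33 bp upstream of the 5' end in the pooled list, 21 bp upstream in replicate 1 and 33 bp upstream in replicate 2. Both replicates thus placed it immediately before the gene. eef-2 (WBGene00001167), which encodes the factor that translocates the ribosome, had a pooled signal of 117 at rank 356, with 69.3 in replicate 1 and 38.8 in replicate 2. It stood at rank 245 of 25000 in replicate 1 and at rank 1061 of 23268 in replicate 2, so replicate 1 placed it higher in its own list.

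The paralogues eef-1A.1 (WBGene00001168) and eef-1A.2 (WBGene00001169) encode eEF1A, the GTPase that carries charged tRNA to the ribosome. eef-1A.1 had a pooled signal of 117 at rank 358, with 48.4 in replicate 1 and 67.9 in replicate 2, and its pooled summit lay 398 bp upstream. eef-1A.2 had 89.1 at rank 655, with 44.7 and 44.3 in the replicates, and its pooled summit lay 358 bp upstream. The 2 genes lie on chromosomes III and X, and both had the summit well before the annotated start, unlike eef-1G and eef-2. eef-1B.1 and eef-1B.2 encode further eEF1 exchange-factor subunits and did not reach the thresholded set. eef-1B.1 was the member closest below it, with a pooled signal of 64.0 at rank 1250 and 26.8 and 34.6 in the replicates. eef-1B.2 had 32.0 at rank 5703, and its rank of 16726 in replicate 1 was far lower than its 5745 in replicate 2.

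eIF5A, which helps ribosomes through stretches where peptide bonds form slowly, is encoded by iff-1 and iff-2, and these paralogues were at opposite ends. In C. elegans iff-1 is known for germ cell proliferation and iff-2 for somatic growth. iff-2 (WBGene00002065) had the highest value of all members, a pooled signal of 249 at rank 74, with 118 at rank 79 in replicate 1 and 131 at rank 70 in replicate 2. Its summit lay 68 bp upstream in the pooled list and in replicate 1 and 77 bp upstream in replicate 2. iff-1 had no summit within 500 bp in any of the 3 lists.

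eIF3 is the large scaffold that binds the small ribosomal subunit, and 8 of its 11 subunit genes had a pooled summit (72.7%). In both replicates 4 had one (36.4%), and 2 reached the thresholded set (18.2%). Over all protein-coding genes these shares were 30.2%, 16.1% and 2.06%. eif-3.C (WBGene00001226), a core subunit, had a pooled signal of 161 at rank 157, with 87.1 in replicate 1 and 73.7 in replicate 2, and its summit lay 266 bp upstream. eif-3.B (WBGene00001225), another core subunit, had 87.4 at rank 677, with 54.6 and 31.4 in the replicates, and its summit lay 288 bp upstream. The replicate summits were 20 bp apart at eif-3.C and 8 bp apart at eif-3.B. eif-3.E came next at 48.1 (rank 2321), with 25.3 in replicate 1 and 19.8 in replicate 2. eif-3.G and eif-3.H, at 27.9 and 27.1, were just above the median of listed genes, and eif-3.D, eif-3.K and eif-3.F, at 25.3, 24.5 and 17.4, were below it. eif-3.J was listed in replicate 1 alone, eif-3.I in replicate 2 alone, and eif-3.L in no list. Genes for subunits of the same complex thus ranged from rank 157 to not listed.

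Of the 5 cap-binding eIF4E genes 3 had a pooled summit (60%, against 30.2% of all protein-coding genes), and none reached the thresholded set. Their median pooled signal was 32.3, against 27.5 for the listed eIF3 genes. ife-2, a somatic form, had a pooled signal of 46.8 at rank 2437, with 20.6 in replicate 1 and 29.6 in replicate 2, and its pooled summit lay 176 bp upstream. ife-1, a germ-line form, had 32.3 and a summit 356 bp inside the gene, where both replicates had theirs within 5 bp of each other. ife-3 had 21.9, ife-4 was listed in replicate 1 alone, and ife-5 was in no list. ifg-1, the eIF4G scaffold that joins the cap to the ribosome, was in no list either.

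Among the genes for eIF2B, the exchange factor that reactivates eIF2, 4 of 5 had a pooled summit (80%, against 30.2% of all protein-coding genes). None of them reached the thresholded set near the 5' end. eif-2Bdelta had 42.2, with 39.2 in replicate 1 and 21.5 in replicate 2, and the replicate summits were 186 bp apart. eif-2Bbeta had 35.5, at rank 5141 in replicate 1 and 23226 in replicate 2, with summits 579 bp apart. eif-2Bepsilon and eif-2Balpha stood at 16.1 and 16.0, close to the lowest pooled values, and eif-2Bgamma was in no list.

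Of the 9 remaining initiation factors, 3 had a pooled summit (33.3%), near the 30.2% of all protein-coding genes. eif-1 and eif-1.A, whose products guide start codon selection, had pooled signals of 46.0 and 43.6, and their summits lay 418 and 372 bp upstream, that of eif-1 on the 5' end of its neighbour vps-24. Both were in both replicate lists, with summits 76 bp apart at eif-1 and 5 bp apart at eif-1.A. eif-2beta, a subunit of the eIF2 complex that carries the initiator tRNA, had 23.8, while the genes of its partner subunits, eif-2alpha and eif-2gamma, were in no list. eif-2A was listed in replicate 2 alone, and eif-2D, eif-4A3 and eif-6 were in no list.

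**Figure D1:**
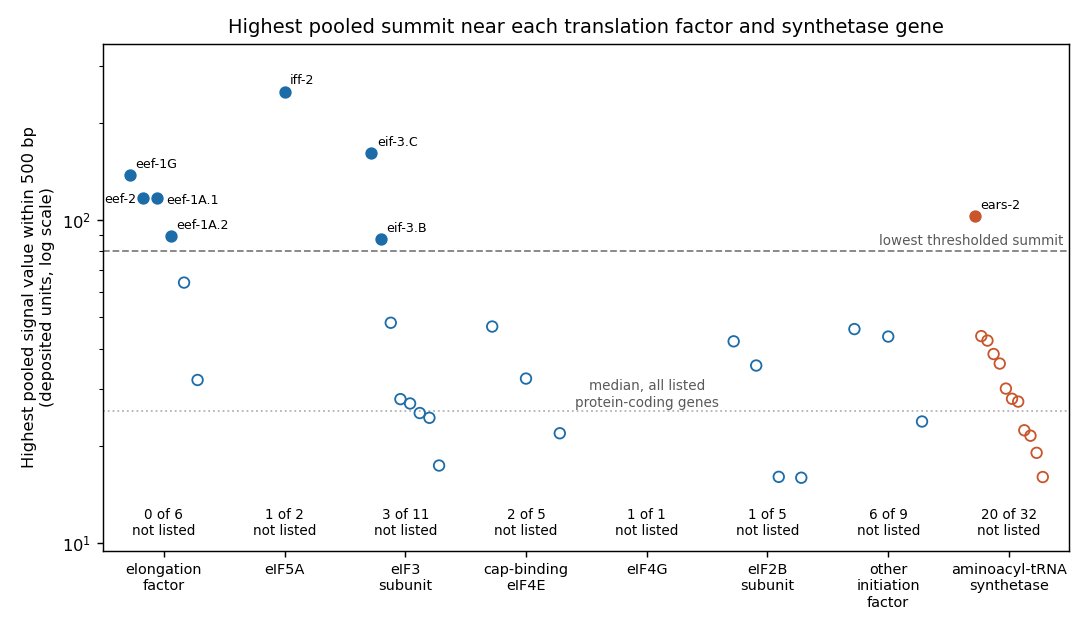
Highest pooled signal value (log axis, deposited units) within 500 bp of the 5' end for each listed member, by role. Filled points are in the thresholded set, and the dashed line marks its lowest summit at 80.3. The dotted line is the median of 25.7 over listed protein-coding genes. Elongation factors, iff-2, eif-3.C and eif-3.B hold 7 of the 8 filled points, and 20 of 32 synthetases are not listed.

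The synthetase genes were listed less fully, with 12 of 32 in the pooled list, and ears-2 alone reached the thresholded set. ears-2 (WBGene00001338), which encodes a glutamyl-tRNA synthetase, had a pooled signal of 103 at rank 471, with 37.1 at rank 1094 in replicate 1 and 68.3 at rank 280 in replicate 2. Its summit lay 35 bp upstream in the pooled list, 40 bp upstream in replicate 1 and 27 bp inside the gene in replicate 2. The gene of the same letter numbered 1, ears-1, was in no list. The next synthetases were well below. fars-3, for the beta subunit of phenylalanyl-tRNA synthetase, had 43.7, with rank 1569 in replicate 1 and 11264 in replicate 2. aars-1, for alanyl-tRNA synthetase, had 42.4, with ranks of 2849 and 3491, and its summit lay 310 bp inside the gene.

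yars-2, for tyrosine, followed at 38.5 and was in both replicate lists with summits 49 bp apart. rars-1, for arginine, had 36.0 and was listed at rank 1055 in replicate 2 but not at all in replicate 1. The other listed synthetases, vars-1, dars-2, kars-1, tars-1, wars-1, dars-1 and iars-1, ran from 30.1 down to 16.0. A further 6 were listed in replicates but not in the pooled list. Of these, iars-2, mars-1, pars-2 and sars-1 were in replicate 1 alone. nars-2 and rars-2 were in both, but rars-2 stood at rank 2125 in replicate 1 and 17709 in replicate 2. The remaining 14, aars-2, cars-1, ears-1, fars-1, fars-2, gars-1, hars-1, lars-1, lars-2, nars-1, pars-1, qars-1, sars-2 and yars-1, were in no list.

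Synthetase genes numbered 2, which share their letter with a gene numbered 1, were compared with the others. Of these 11, 3 had a pooled summit (27.3%) and 4 were in both replicate lists (36.4%). Of the 21 numbered 1 or 3, 9 had a pooled summit (42.9%) and 4 were in both replicate lists (19%). Beside the 30.2% and 16.1% of all protein-coding genes, the first group was near the background in the pooled list and the second near it in both replicates. In replicate 1 the counts were 7 of 11 (63.6%) and 8 of 21 (38.1%), against 28.4% of all protein-coding genes. In replicate 2 they were 4 of 11 (36.4%) and 7 of 21 (33.3%), against 27.8%. Genes numbered 2 thus had the larger share in each replicate list and the smaller share in the pooled list, and the numbers are small.

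Side by side, 25 of 39 factors (64.1%) and 12 of 32 synthetases (37.5%) had a pooled summit, against 30.2% of all protein-coding genes. In replicate 1 the counts were 22 (56.4%) and 15 (46.9%), against 28.4%, and in replicate 2 they were 24 (61.5%) and 11 (34.4%), against 27.8%. The share of factors was above that of synthetases in each list, and the synthetases were nearest to the background in the pooled list and in replicate 2. A summit in both replicates was found for 18 factors (46.2%) and 8 synthetases (25%), against 16.1% of all protein-coding genes. This gap depended on the window. Within 250 bp it was 7 factors (17.9%) and 5 synthetases (15.6%), against 8.1%, and within 1000 bp it was 20 (51.3%) and 14 (43.8%), against 26.2%. For the pooled list the shares were 38.5% and 28.1% within 250 bp, against 18.9%, and 74.4% and 59.4% within 1000 bp, against 43.1%. Factors were ahead at each width, but by little in both replicates outside the window of 500 bp.

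High values were held mostly by factors. Among the upper 10% of the pooled list, ranks up to 2600, there were 11 factors (28.2%) and 1 synthetase (3.12%), against 5.98% of all protein-coding genes. In the thresholded set there were 7 factors (17.9%) and 1 synthetase (3.12%), against 2.06%. With 1 synthetase in each count, its share was near the background at ranks up to 2600 and in the thresholded set. Among listed genes the median pooled signal was 42.2 for factors and 29.1 for synthetases, against 25.7 for all protein-coding genes. The ranges overlapped, from 16.0 to 249 for factors and from 16.0 to 103 for synthetases. At or above that median of all listed genes were 18 of 25 factors and 8 of 12 synthetases.

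**Figure D2:**
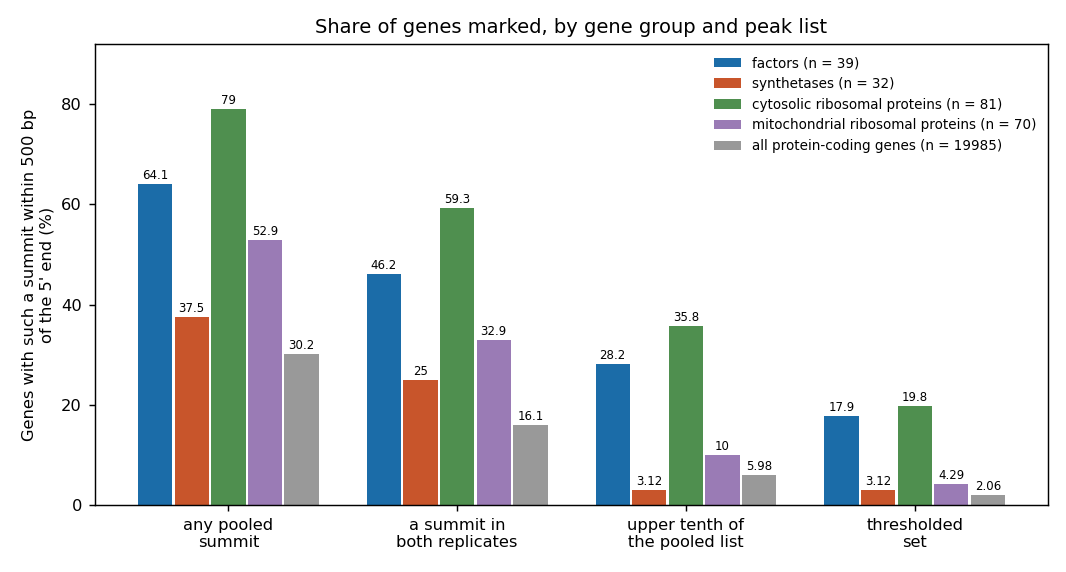
Percent of genes with a summit within 500 bp of the 5' end, by gene group (colours, with the number of genes in the legend) and by peak list (horizontal axis). Bars start at 0 and each carries its value. Factors stand at 64.1% and 17.9% in the pooled list and the thresholded set, and synthetases at 37.5% and 3.12%, beside 30.2% and 2.06% of all protein-coding genes.

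Cytosolic ribosomal protein genes, counted in the same way, were listed more often than the factors in the pooled list, with 79% of 81 genes, and had 19.8% in the thresholded set. Mitochondrial ribosomal protein genes lay between factors and synthetases, with 52.9% of 70 genes in the pooled list and 4.29% in the thresholded set. A list of 25 other translation genes (release, recycling and mitochondrial elongation factors, poly(A)-binding proteins and regulators such as TOR kinase) had 16 in the pooled list (64%) and 3 in the thresholded set (12%). Those 3 were drr-2, an eIF4H homologue, with a pooled signal of 348 at rank 39, gfm-1 for mitochondrial EF-G with 95.0 at rank 557, and tufm-2 for mitochondrial EF-Tu with 88.0 at rank 665. drr-2 thus stood above iff-2, the highest member.

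The position of the summit also differed between the 2 classes. Among factors with a pooled summit, 21 of 25 (84%) had it upstream of the 5' end, and the median lay 176 bp upstream, with quartiles at 288 and 33 bp upstream. Among synthetases 5 of 12 (41.7%) had it upstream, and the median lay 17 bp inside the gene. Over all listed protein-coding genes 61.4% of summits were upstream, with a median of 79 bp, and over genes with a thresholded summit 89.1% were upstream, with a median of 179 bp. In replicate 1 the medians were 161 bp upstream for factors and 130 bp upstream for synthetases, and in replicate 2 they were 233 bp upstream and 20 bp inside. The synthetase median therefore changed side between the replicates, and it was -35 bp, upstream, in a window of 1000 bp. The factor median was upstream in both replicates.

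**Figure D3:**
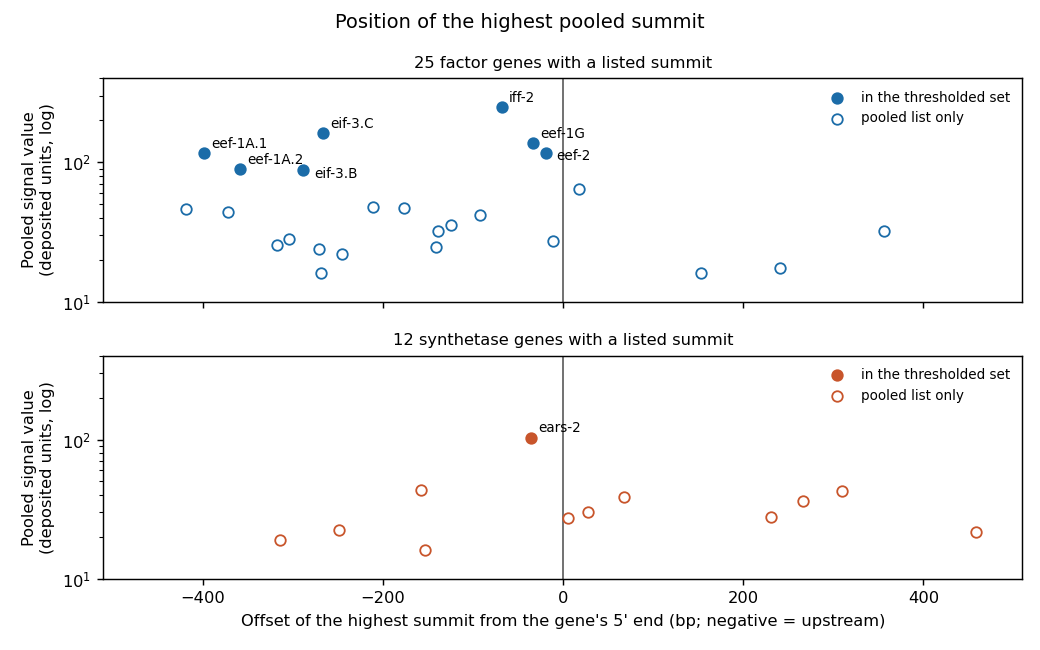
Offset of the highest pooled summit from the 5' end (horizontal axis, bp, negative is upstream) against its pooled signal value (log axis, deposited units), for 25 factors and 12 synthetases. Filled points are in the thresholded set and all 8 are upstream. Of the factors 21 lie left of the line at 0, and of the synthetases 5 do.

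The window edge of 500 bp decided some members. Just inside it were eif-1, with its summit 418 bp upstream, and wars-1, with its summit 459 bp inside the gene. Just outside it were summits 508 bp inside sars-2 (signal 17.4) and 537 bp upstream of lars-1 (23.6). Farther out were summits 634 bp upstream of eif-2Bgamma (58.7, rank 1520) and 941 bp upstream of iars-2 (58.3, rank 1543), both higher than any listed synthetase summit other than that of ears-2. However, another gene on the same strand ended 252 bp upstream of eif-2Bgamma and 489 bp upstream of iars-2. Both summits lay beyond that end, and which gene they belong to was not tested.

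The highest summits of the replicates lay closer together for factors than for synthetases. Each distance is between the highest summit of each replicate in the window, and these need not be the same peak. Among the 18 factors listed in both, the median distance between the replicate summits was 28.5 bp (range 5 to 579), and 13 (72.2%) lay within 100 bp. Among the 8 synthetases it was 195 bp (range 49 to 531), and 3 (37.5%) lay within 100 bp. The 3225 protein-coding genes listed in both had a median of 92 bp, and 52.3% lay within 100 bp. All 6 elongation factors were within 59 bp. Neither replicate held the higher ranks throughout, since 11 of 18 factors and 4 of 8 synthetases ranked higher in replicate 1. The 8 members in the thresholded set, 7 factors and 1 synthetase, had replicate summits at most 67 bp apart. The shorter factor distances thus include these high summits, and their part in the difference was not tested.

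**Figure D4:**
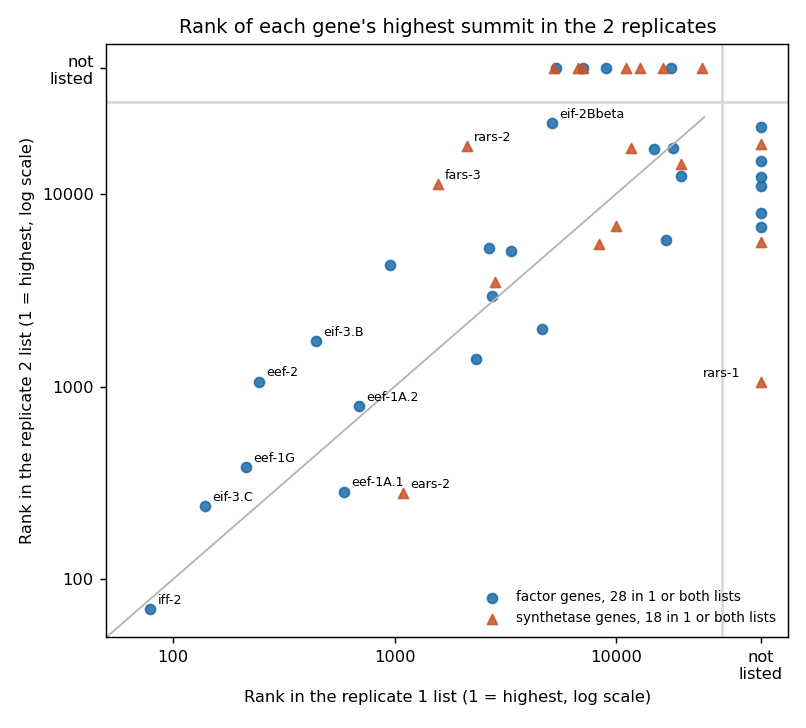
Rank of each member's highest summit in the replicate 1 list (horizontal) and the replicate 2 list (vertical), both on log axes where rank 1 is the highest, with unlisted genes beyond the grey lines. The diagonal marks equal ranks. iff-2 stands at 79 and 70, while rars-2 (2125 and 17709), fars-3 (1569 and 11264) and eif-2Bbeta (5141 and 23226) lie far from the diagonal.

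Which thresholded members fell among the 798 highest summits of a replicate list depended on the replicate. Taking the 798 highest summits of replicate 1 alone gave 7 of the 8 members, without ears-2, where 1.97% of protein-coding genes were marked. Taking those of replicate 2 alone gave 6, without eef-2 and eif-3.B, where 1.88% were marked. eef-1A.1, eef-1A.2, eef-1G, eif-3.C and iff-2 were in both. The deposited −log10 q-value could not order these members, because all 8 stood at its ceiling of 2.44.

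Several of these summits lie between 2 genes and cannot be given to either. The pooled summit of 13 of 37 listed members, and of 4 of the 8 in the thresholded set, also lay within 500 bp of another protein-coding 5' end. Over all protein-coding genes the same held for 19.1% of those in the pooled list and 39.4% of those in the thresholded set. The summit of eef-1A.1 lay 143 bp upstream of rfc-4, a replication factor C gene, and 25 bp upstream of the microRNA gene cel-mir-5549. The summit of eef-1G lay 147 bp upstream of ctf-4, that of eef-2 lay 246 bp upstream of clsp-1, and that of ears-2 lay 57 bp upstream of uncp-18. At eef-1A.1 the summit was nearer to the neighbour's start than to the member's, while at eef-1G, eef-2 and ears-2 it was nearer to the member's, at 33, 19 and 35 bp. Outside the thresholded set, the summit of eif-1 lay on the 5' end of vps-24 itself, at 0 bp, and that of eif-3.D lay 3 bp from the 5' end of R08D7.4. The summit of eef-1B.1 lay 349 bp upstream of aco-2. The summits of iff-2, eif-3.C, eif-3.B and eef-1A.2 had no other protein-coding 5' end within 500 bp. That of eef-1A.2 did lie 229 bp from the 5' end of the non-coding RNA gene R03G5.8, on the other strand. Non-coding RNA genes also started near the summits of eef-1B.1 (F54H12.9, 41 bp) and eif-2beta (K04G2.15, 27 bp). No listed member had a tRNA, snoRNA or snRNA 5' end within 500 bp of its summit.

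Divergent neighbours were common among the members. A divergent protein-coding 5' end lay within 1000 bp upstream of 20 factors (51.3%) and 11 synthetases (34.4%), against 17.7% of all protein-coding genes. Factors with and without such a neighbour were listed about equally often, 13 of 20 against 12 of 19, while over all protein-coding genes the shares were 39% and 28.3%. Of the synthetases 5 of 11 with and 7 of 21 without a divergent neighbour were listed. A gene on the same strand ended within 500 bp upstream of 7 factors (17.9%) and 11 synthetases (34.4%), against 18.1% of all protein-coding genes, an arrangement often seen in operons. With such a gene upstream, 3 of 7 factors (42.9%) and 5 of 11 synthetases (45.5%) were listed, against 39.2% of all protein-coding genes. Without one, 22 of 32 factors (68.8%) and 7 of 21 synthetases (33.3%) were listed, against 28.2%. Factors were thus ahead only among genes without a close gene upstream, and the numbers are small.

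The chromosomes held unequal numbers of members. On chromosome I, 6 of 12 factors and 0 of 9 synthetases had a pooled summit, against 33.5% of its protein-coding genes. On II the counts were 6 of 12 and 4 of 5, against 28.1%, and on III they were 5 of 6 and 2 of 6, against 37.0%. On IV they were 2 of 2 and 3 of 8, against 29.6%, and on V 4 of 4 and 3 of 4, against 26.7%. X held 3 factors, of which 2 were listed, against 29.7%, and no synthetase. The synthetases on III and IV were listed about as often as other genes there, and the numbers on each chromosome are small.

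Summits deeper than 500 bp inside the gene were found for 39 of 71 members, against 33.5% of all protein-coding genes, and 2 members had one in the thresholded set, against 0.871%. The median gene length was 2438 bp for members (2152 bp for factors and 3576 bp for synthetases), against 2026 bp for all protein-coding genes. The part of length in these counts was not tested. The one in eif-2Bdelta, at chrV:9516350-9516508, had a pooled signal of 173 at rank 136 and lay 2617 bp into the gene, with no other annotated gene at the summit. It was at rank 114 in replicate 1 and 168 in replicate 2, far above the gene's own summit near the 5' end. The one in fars-1 had a signal of 103 at rank 472 and lay 1823 bp into the gene. The pseudogene WBGene00023344 starts 30 bp from it, the snoRNA gene T08B2.13 38 bp from it and the non-coding RNA gene T08B2.14 167 bp from it, and their part in the signal was not tested. Thus fars-3 was listed at its 5' end and fars-1, for the partner subunit of the same enzyme, only inside the gene.

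Base composition and 4 short motifs were read from the reference. Under the highest pooled summit the median GC content of the window, 50 bp to either side, was 39.6% for factors and 33.7% for synthetases, against 38.6% over the windows of all listed protein-coding genes. For the 8 thresholded members it was 50% (range 31.7 to 59.4%), and 48.5% for all genes with a thresholded summit. iff-2 was at the upper end, and eif-3.B, whose window above is rich in A and T, was at the lower end. Windows in the thresholded set were richer in GC than listed windows as a whole, over all genes and over these members, and the part of GC content in the signal was not tested.

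The promoters, 250 bp before to 50 bp after the 5' end, were searched on both strands. GAGAGA was found in 6 factor promoters (15.4%) and 7 synthetase promoters (21.9%), against 21.8% of 19973 nuclear protein-coding promoters. TATAAA was found in 17 (43.6%) and 8 (25%), against 37.9%, and CACGTG in 0 and 1 (3.12%, hars-1), against 5.82%. GCGCGAAA was found in the promoters of eef-1B.1, eef-2 and eif-2A (7.69% of factors) and of no synthetase, against 1.14%. Within the same windows around summits GAGAGA was present at eef-1A.1 and eef-1A.2, 2 of the 8 thresholded members, against 21% of the windows of all genes with a thresholded summit and 10.3% of those of all listed genes. Of the same 8, TATAAA was present at eif-3.B alone, against 5.56% and 13% in the same order. GCGCGAAA was present at eef-2 alone, against 2.16% and 0.769%, and CACGTG at none, against 6.79% and 3.26%. A match is a description of the letters and not a site.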

How the data were processed

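The authors deposited ChIP-seq peak lists on builds ce10 and ce11 for each replicate, for both replicates together and for a thresholded set, and the ce11 lists were used. Each holds a signal value per peak, which the authors' peak caller computed over a control, a −log10 q-value deposited beside it, and the summit's offset from the peak start. Per the deposited descriptions, the pooled list derives from both replicates' alignments and 1 shared control. Which aligner and peak caller made them, in which versions and with what threshold, is not given in the sources used here.

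Gene models came from Ensembl release 115 (WBcel235, identical to ce11), and bases were read from RefSeq's genome of that assembly. Each gene's 5' end was the annotated gene's, and the highest summit within 500 bp was kept. Genes named are the members in the thresholded set or in the upper 10% of the pooled list and the leading synthetases, and every other member is named by role. Members and lists were chosen with earlier results of these data known. The lookup was tested on simulated summits placed inside or outside the window of 200 genes. All 200 gave the right answer, with no summit returned where it lay outside. Python 3.11.15 with pandas 2.3.3, NumPy 2.4.6, Biopython 1.88 and matplotlib 3.10.9 was used. Depth is unknown, and the ce10 lists were not used here.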

Additional observations from a re-analysis of the deposited data

How the results depend on the processing

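Of 68 alternative values, 51 were counted as the same as the value reported, where a count could move by a factor of up to 1.5. For example, 13 factors in both replicates, with summits within 100 bp of each other, counted as the same as 18. With a window of 250 bp, factors in the pooled list, in both replicates and in the thresholded set came to 15, 7 and 3 instead of 25, 18 and 7, synthetases in both replicates to 5 instead of 8, and the factor median offset to -85 instead of -176 bp. With 1000 bp, synthetases in the pooled list and in both replicates rose to 19 and 14, beside 29 and 20 factors, and their median offset turned to -35 from 17 bp; with the nearest 5' end of any protein-coding transcript it was -3 bp. Synthetases in both replicates were 5 with summits at or above each list's median signal, 3 when summits had to lie within 100 bp, and 2 with the highest 5000 summits of each replicate, where factors numbered 11. Using a single replicate's list, the factor median offset ranged from -233 (without replicate 1) to -161 bp, and the synthetase median from -130 (without replicate 2) to 20 bp. Synthetases in the thresholded set ranged from 0 (without replicate 2, which drops ears-2) to 1, and were 0 among the upper 399 thresholded summits, where 5 factors stayed. The cause of these shifts was not tested beyond the construction of each alternative, since narrower windows and shorter lists hold fewer summits. No paired analysis was possible because both samples belong to 1 group and no result comes from a test. Depth could not be weighed, since read numbers were not given in these files.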
